A study of Sus scrofa with 36 samples.

Results

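The lipin family was measured in pig liver: LPIN1, LPIN2 and LPIN3, 3 of 10453 gene symbols that had a usable probe. The array carried 15 lipin probes, 8 for LPIN1, 4 for LPIN2 and 3 for LPIN3. Members were chosen by their name in the array annotation and by a measured value, a signal that the scanner software flagged as well above background in 6 or more of the 36 arrays, and all 15 probes met it. Of these, 13 were above background on all 36 arrays. The lowest counts belonged to LPIN1, with A_72_P106386 above background on 31 arrays and O3619 on 25, and no lipin probe fell outside the limit. LPIN1 drew attention through its difference between F1 and Large White pigs, so its breed differences are given as a description, without a test.

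The arrays held liver RNA of 36 growing castrated male pigs, 12 Large White (LW, a conventional production breed), 12 Creole (CR, a breed of the Caribbean) and 12 crosses of both (F1). In each breed, 6 animals were killed under thermoneutral conditions (TN, 24 °C) and 6 after some days of heat stress (HS, labelled 30 °C but given as 32 °C in the growth protocol). All were castrated and shared a climatic room and a diet, and the labels give no age. Slaughter under TN came first and under HS later, and so an effect of temperature and one of the day of slaughter cannot be told apart. Per the study's methods the animals included littermates, and each pen held pigs of the same breed. The labels name neither litter nor pen, so the tests count all animals as independent. Litters and pens lay within breeds, so p-values for breed differences may be too small.

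Lipins are phosphatidate phosphatases: they remove the phosphate from phosphatidate and yield diacylglycerol, the precursor of triglycerides and of the main membrane phospholipids. LPIN1 is best known from fat and muscle and, in fasted liver, as a nuclear partner of the coactivator PPARGC1A and the receptor PPARA. LPIN2 is the lipin generally regarded as prominent in liver, and LPIN3 is the least studied member.

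On the pig assembly Sscrofa11.1, LPIN1 lies at chr3:124940557-125074137, LPIN2 at chr6:103625725-103728151 and LPIN3 at chr17:43993710-44006188. Each value below is the signal of a 60-base probe, and the probes that the annotation places inside a RefSeq transcript are shown because their sequences define what was read as each lipin. In the transcript named by the annotation, the LPIN1 probes begin at base 208, 594 and 1522, the LPIN2 probes at base 874 and 2434, and the LPIN3 probes at base 2129 and 2391.
LPIN1 A_72_P312828: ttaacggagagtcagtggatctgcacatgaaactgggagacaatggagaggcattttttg
LPIN1 A_72_P542218: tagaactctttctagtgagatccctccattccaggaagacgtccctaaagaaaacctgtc
LPIN1 A_72_P106386: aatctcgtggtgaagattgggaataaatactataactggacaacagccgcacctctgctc
LPIN2 A_72_P762970: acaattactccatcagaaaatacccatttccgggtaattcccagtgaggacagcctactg
LPIN2 A_72_P290574: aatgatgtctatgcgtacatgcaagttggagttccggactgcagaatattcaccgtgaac
LPIN3 A_72_P664712: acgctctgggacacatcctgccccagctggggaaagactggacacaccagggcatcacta
LPIN3 A_72_P100121: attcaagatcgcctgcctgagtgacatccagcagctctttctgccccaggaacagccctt
LPIN1 A_72_P075451 carries the same sequence as A_72_P542218, and LPIN2 O9306 the same as A_72_P290574, so each of these pairs reads one target. Between genes the probes were unlike: the longest run of bases shared on either strand was 7 between LPIN1 and LPIN2, 9 between LPIN1 and LPIN3, and 7 between LPIN2 and LPIN3. Levels of different probes cannot be set against each other, so no lipin is ranked above another here. The probe with the highest mean signal stands for each gene: A_72_P580437 for LPIN1, A_72_P292904 for LPIN2 and O6482 for LPIN3.

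The tissue carried the markers of liver. All 6 hepatocyte markers checked, among them ALB and APOA1, were above background on all 36 arrays, with an averaged log2 level of 17.90 to 18.06 in TN and 17.94 to 18.05 in HS. Adipocyte markers (4 of 4 kept, 3 of them above background on all 36 arrays, averaged level 7.46 to 7.79 in TN and 7.44 to 7.81 in HS) and skeletal muscle markers (4 of 4, 7.93 to 8.24 and 8.01 to 8.30), from tissues that also express lipins, showed overlapping ranges at both temperatures. Along the main axis of variation between arrays (the first principal component, 18.6% of the variance), 5 animals lay apart from their breed: LW TN replicates 1 and 6 (-4.8 and -3, against -44.2 to -24.8 in other LW animals), and F1 TN replicate 3 and F1 HS replicates 1 and 2 (-21.3 to -17, against -1.3 to 36.9 in other F1 animals). Breed differences of the lipins and of the listed genes are therefore also given without them, an alternative chosen after the data were seen. In it more of all probes passed the test: 33% for CR minus LW and 32.3% for F1 minus LW. LW and CR animals lay at opposite ends of this axis, and the 5 animals lay toward another breed. Leaving them out therefore favours larger breed differences, so a call kept or gained in that fit is not separate support. The animal numbers in the labels run in consecutive blocks by breed, except at LW TN replicates 1 and 6 and F1 HS replicates 1 and 2. Whether labels were exchanged among these animals, which would alter both breed and temperature, was not tested. The main fits keep the labels as given.

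The first question was whether heat stress changed the lipins. None of the 15 probes passed the test between HS and TN (limma, adjusted p of 0.468 to 0.999, and no unadjusted p under 0.05), where 0.857% of all 44796 probes tested did. In a bulk sample, fewer cells of a type and less RNA per cell cannot be told apart. The plot of single animals shows the TN and HS points of each breed interleaved for all 3 genes.

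**Figure D1:**
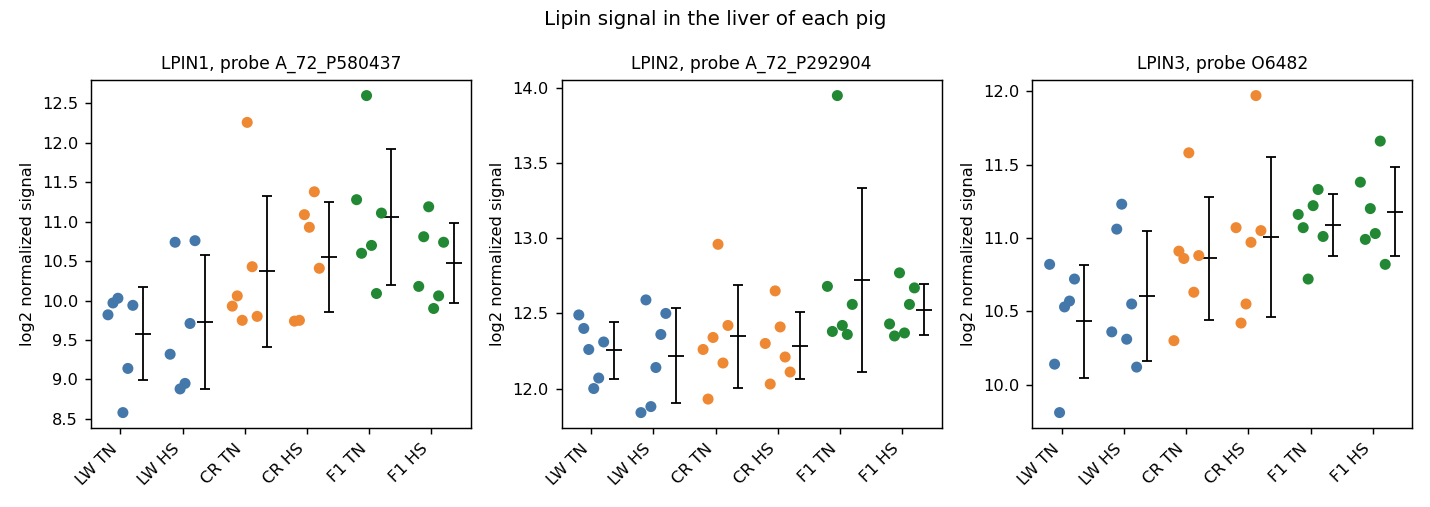
Log2 normalized signal of the representative probe of LPIN1, LPIN2 and LPIN3 in each pig, by breed (LW, CR, F1) and temperature (TN, HS). Each dot is 1 animal, 6 per group, and the bar beside each group is the mean ± SD. One F1 TN animal stood highest for LPIN1 (12.60) and LPIN2 (13.95), and F1 animals lay above most LW animals for all 3 genes.

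LPIN1, the lipin tied to fasting and PPARGC1A, had a log2 signal of 8.58 to 12.60 in TN (median 10.05, n = 18) and 8.88 to 11.38 in HS (median 10.30, n = 18). The ranges overlapped almost entirely. The difference was -0.09 ± 0.24 (HS minus TN, log2, SE), with a 95% interval of -0.57 to 0.40, a fold of 0.673 to 1.32. Its direction rested on single animals: it was 0.03 without F1 TN replicate 3 and 0.03 without CR TN replicate 4, and 0.08 without the 5 animals that lay apart. The 8 LPIN1 probes lay between -0.09 and 0.03, 4 of them above 0.

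LPIN2 had a signal of 11.93 to 13.95 in TN (median 12.37, n = 18) and 11.84 to 12.77 in HS (median 12.36, n = 18). The ranges overlapped, with F1 TN replicate 3 (13.95) and CR TN replicate 4 (12.96) above every HS animal. The difference was -0.10 ± 0.107 (log2, SE), with an interval of -0.32 to 0.12 (limma, adjusted p = 0.778), and 0.02 without the 5 animals that lay apart. Without F1 TN replicate 3 alone it was -0.02. All 4 LPIN2 probes were lower in HS, by -0.20 to -0.09, and none passed the test. LPIN2 at its representative probe was also lower in HS within each of the 5 slides on which the arrays lay, by -0.29 to -0.03. These means were not adjusted for breed. On slide 1 the HS arrays were of CR and F1 animals and the TN arrays of LW animals only. Slide 4, which gave -0.29, held F1 TN replicate 3. The slides therefore cannot show an effect of heat apart from breed.

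LPIN3 had a signal of 9.81 to 11.58 in TN (median 10.84, n = 18) and 10.12 to 11.97 in HS (median 11.01, n = 18), again overlapping. The difference was 0.14 ± 0.124 (log2, SE), with an interval of -0.11 to 0.39 (limma, adjusted p = 0.714). All 3 LPIN3 probes leaned upward, by 0.09 to 0.14. Over the 15 probes, the 95% intervals lay within 0.5 of 0 on the log2 scale except at the LPIN1 probes A_72_P497008 (-0.61 to 0.44) and A_72_P580437.

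Within breeds, no lipin probe passed the test in LW, in CR or in F1, and no lipin probe had an unadjusted p under 0.05 (limma). Across all probes the calls were 0% within LW (2289 probes at an unadjusted p under 0.05), 0% within CR (3315) and 0.00893% within F1. LPIN1 at A_72_P580437 differed by 0.15 ± 0.414 within LW, 0.18 ± 0.414 within CR and -0.58 ± 0.414 within F1 (HS minus TN, log2, SE). All 8 LPIN1 probes were lower in HS within F1, by -0.58 to -0.12, while 7 of 8 were higher within CR, by up to 0.50. The test of the difference between breeds itself, the interaction, did not pass: its adjusted p was at least 0.995 for all 15 probes (limma F test), and 0% of all probes passed it (1677 at an unadjusted p under 0.05). These values turned on single animals: without F1 TN replicate 3 the F1 value of LPIN1 was -0.27, and the CR value was 0.56 without CR TN replicate 4 and 0.014 without CR HS replicate 5. The LW value ran from -0.06 without LW HS replicate 6 to 0.32 without LW HS replicate 3.

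The next comparison was between breeds. LPIN1, described here without a test, had a log2 signal of 8.58 to 10.76 in LW (median 9.76), 9.74 to 12.26 in CR (median 10.24) and 9.90 to 12.60 in F1 (median 10.72), with 12 animals each. The ranges overlapped, but 5 of 12 F1 animals lay above the highest LW animal and 7 of 12 LW animals below the lowest F1 animal. F1 exceeded LW by 1.12 ± 0.294 and CR exceeded LW by 0.81 ± 0.294 (log2, SE), whereas F1 and CR were 0.31 ± 0.294 apart. Without the 5 animals that lay apart, the same values were 1.04, 0.86 and 0.18. Removing F1 TN replicate 3 alone gave 0.95 for F1 minus LW, and removing CR TN replicate 4 alone gave 0.64 for CR minus LW. F1 minus CR was 0.15 without the first of these animals and 0.48 without the second. Within slides, F1 exceeded LW in 5 of 5 slides, by 0.29 to 1.86, and CR minus LW was above 0 in 4 of 5 slides, from -0.16 to 1.63. A slide held 1 to 3 animals of a breed, and these means were not adjusted for temperature. On slide 1, 1 F1 and 1 CR animal in HS stood against 2 LW animals in TN.

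The LPIN1 probes did not give one size for the F1 difference. A_72_P497008 gave 1.23 ± 0.318, A_72_P312828 gave 0.66 ± 0.232 and A_72_P106386, a dim probe, gave 0.24 ± 0.112 (F1 minus LW, log2, SE). The pair of identical probes A_72_P542218 and A_72_P075451 gave 0.68 ± 0.258 and 0.65 ± 0.252. The probes with the largest values, A_72_P497008 and A_72_P580437, are placed by the array annotation at base 5105 and 3973 of another LPIN1 transcript record, and A_72_P253192, placed between them at base 4578, gave 0.60 ± 0.28. Of the 8 LPIN1 probes, 3 were past the threshold for F1 minus LW, all higher in F1, beside 18.3% of all probes. For CR minus LW it was 2, beside 26.5%: A_72_P580437, higher in CR, and O3619, lower in CR. LPIN1 was chosen on this contrast, so nothing is read from those counts.

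**Figure D2:**
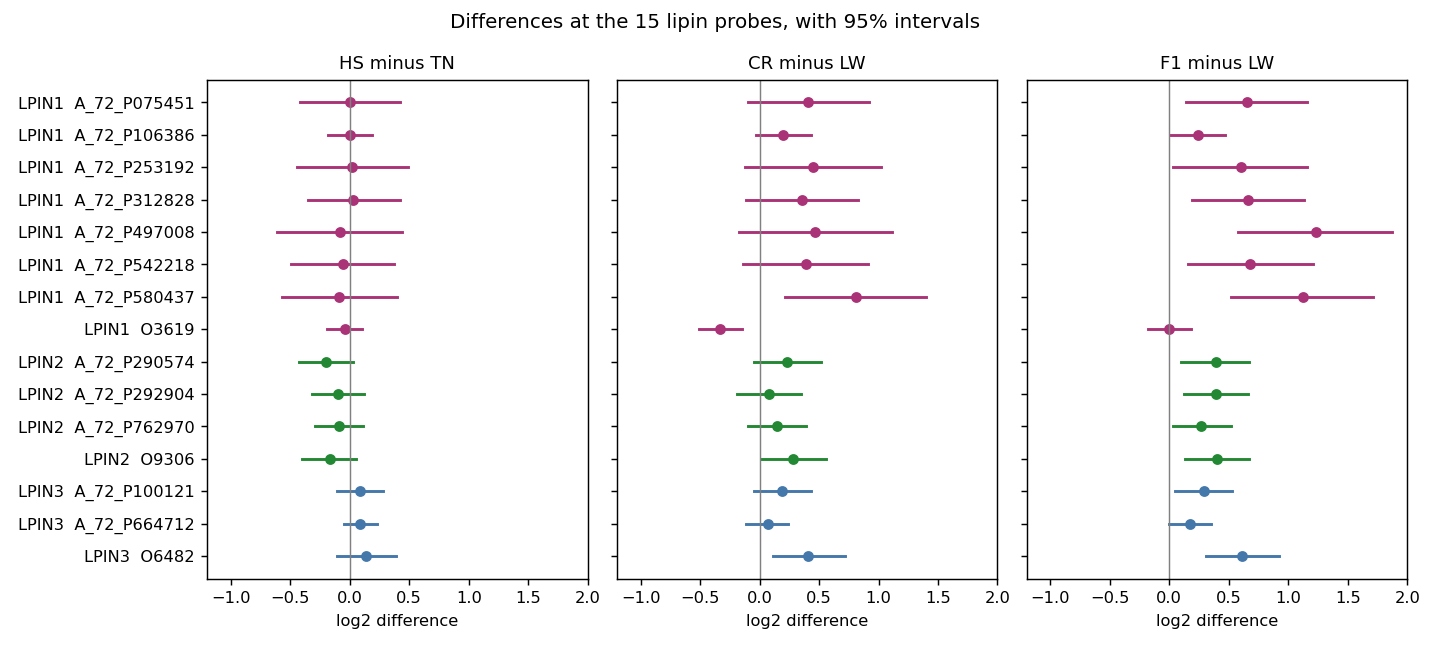
Log2 differences at the 15 lipin probes for HS minus TN, CR minus LW and F1 minus LW. Points are the fitted differences and lines their 95% intervals, coloured by gene, and the grey line marks 0. The HS minus TN values lie between -0.20 and 0.14, whereas the F1 minus LW values reach 1.23, and O3619 is the one probe below 0 in CR minus LW.

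LPIN2 had a signal of 11.84 to 12.59 in LW (median 12.28), 11.93 to 12.96 in CR (median 12.28) and 12.35 to 13.95 in F1 (median 12.50), with 12 animals each. All 12 F1 animals lay above the medians of LW and CR. LPIN2 rose in F1 over LW by 0.39 ± 0.131 (log2, SE; fold 1.31; limma, adjusted p = 0.0351). Of the 4 LPIN2 probes 3 passed the test for F1 minus LW, beside 18.3% of all probes. Of these, A_72_P290574 and O9306 (limma, adjusted p of 0.0489 and 0.0353) carry the same sequence and read 1 target. The remaining probe, A_72_P762970, gave 0.27 ± 0.12 (adjusted p = 0.106). The call for A_72_P292904 was lost when LW TN replicate 4 or 5, LW HS replicate 1 or 3, or F1 HS replicate 3 or 6 was left out (adjusted p of 0.052 to 0.062, limma). Without F1 TN replicate 3, the animal with the highest LPIN2, it was 0.27 ± 0.0966 (adjusted p = 0.0432), and without the 5 animals that lay apart 0.33 ± 0.11 (adjusted p = 0.0208). The call was also lost with the authors' log2 values (0.28, adjusted p = 0.0638), with Agilent's processed signal (0.35, adjusted p = 0.066) and without slide 2, 3, 4 or 5. Within slides, F1 minus LW was above 0 in 4 of 5, from -0.01 to 0.79, again in few animals per slide and not adjusted for temperature.

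LPIN2 did not pass the test between CR and LW at any of its 4 probes, with 0.08 ± 0.131 at A_72_P292904 and an interval of -0.19 to 0.35 (adjusted p = 0.707, limma), and 0.11 without the 5 animals that lay apart. Between F1 and CR it differed by 0.31 ± 0.131 (adjusted p = 0.283), which was 0.19 without F1 TN replicate 3 and 0.22 without the 5 animals. None of the 7 LPIN2 and LPIN3 probes passed the test between F1 and CR (limma; 1 had an unadjusted p under 0.05), beside 1.5% of all probes. By mean level its order was thus LW, CR, F1, with neither LW and CR nor CR and F1 separated by the test.

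LPIN3 had a signal of 9.81 to 11.23 in LW (median 10.54), 10.30 to 11.97 in CR (median 10.89) and 10.72 to 11.66 in F1 (median 11.11), with 12 animals each. No F1 animal lay below the LW median, and 8 of 12 LW animals lay below the lowest F1 animal. LPIN3 rose in F1 over LW by 0.61 ± 0.151 (log2, SE; fold 1.53; limma, adjusted p = 0.00553), and in CR over LW by 0.41 ± 0.151 (adjusted p = 0.0394). Both calls held at O6482 only, 1 of 3 LPIN3 probes. Of all probes, 18.3% were called between F1 and LW, and 26.5% between CR and LW. In F1 over LW, A_72_P100121 gave 0.29 ± 0.118 (adjusted p = 0.0826) and A_72_P664712 gave 0.17 ± 0.0864 (adjusted p = 0.165; limma). In CR over LW, A_72_P100121 gave 0.19 ± 0.118 (adjusted p = 0.238) and A_72_P664712 gave 0.07 ± 0.0864 (adjusted p = 0.628; limma). The F1 call kept its side of the threshold in all 36 fits that each left out 1 animal (adjusted p of 0.00272 to 0.0117), but without slide 4 it was 0.56 (adjusted p = 0.0508). It was 0.73 ± 0.176 without the 5 animals that lay apart (adjusted p = 0.00182).

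The CR call of LPIN3 was less firm. It was lost without LW TN replicate 2 or 3, LW HS replicate 1, 4, 5 or 6, CR TN replicate 3 or 4, or CR HS replicate 1 or 5 (adjusted p of 0.0506 to 0.0872, limma). Without the 5 animals that lay apart it was 0.48 ± 0.163 (adjusted p = 0.022). F1 and CR were 0.20 ± 0.151 apart (adjusted p = 0.674), and 0.24 without the 5 animals. LPIN3 thus ran in the order LW, CR, F1, and CR and F1 were not separated by the test.

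F1 lay above the mean of both parental breeds at all 15 probes. LPIN1 was chosen for F1 minus LW, which this contrast contains, and LPIN2 varied with LPIN1, so nothing is read from that count. None of the 7 LPIN2 and LPIN3 probes passed the test against that mean (limma, 4 with an unadjusted p under 0.05), beside 1.13% of all probes. The values were 0.72 ± 0.254 for LPIN1, 0.35 ± 0.114 for LPIN2 (adjusted p = 0.121) and 0.41 ± 0.131 for LPIN3 (adjusted p = 0.117; limma). Without the 5 animals that lay apart, LPIN2 (0.27, adjusted p = 0.0442) and LPIN3 (0.48, adjusted p = 0.0253) passed it, beside 17% of all probes in that fit. Without F1 TN replicate 3 alone, LPIN2 was 0.23 (adjusted p = 0.141). Without CR HS replicate 5 alone, LPIN3 passed it too (0.45, adjusted p = 0.0457). Some markers of other cell types were also called between breeds. Of all genes, 25.8% were called for CR minus LW and 17.3% for F1 minus LW. With so few markers per cell type, the marker counts are not read as a change in cell types. The averaged log2 level of the 4 macrophage markers on the array was 11.40 to 11.82 in LW, 10.88 to 11.28 in CR and 10.96 to 11.65 in F1, and CD163, a scavenger receptor of liver macrophages, was the 1 of 4 called for F1 minus LW, lower in F1. For CR minus LW, 2 of 4 macrophage markers were lower. Lymphocyte markers ran at 8.27 to 8.81 in LW, 7.93 to 8.54 in CR and 8.07 to 8.57 in F1, with CD2 lower in F1 and, with CD3E, in CR (1 and 2 of 4 called). Adipocyte markers ran at 7.63 to 7.81 in LW, 7.44 to 7.73 in CR and 7.57 to 7.79 in F1, where PLIN1 was lower in both F1 and CR and LEP higher in CR, 1 and 2 of 4 called. Of the hepatocyte markers 1 of 6, APOA1, was lower in CR. No skeletal muscle or red blood cell marker was called for either comparison. Their part in the breed differences of the lipins was not tested.

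One LPIN1 probe, O3619, did not follow the others. Its log2 signal was 5.29 to 6.18 in LW (median 5.60), 5.15 to 5.85 in CR (median 5.33) and 5.38 to 6.12 in F1 (median 5.68), close to background throughout. It was above background in 11 of 12 LW, 3 of 12 CR and 11 of 12 F1 animals. The other 7 LPIN1 probes were higher in CR than in LW by 0.20 to 0.81, whereas O3619 gave -0.33 ± 0.0889 (log2, SE). With 9 of 12 CR animals not above background, the size of that value depended on the handling of background: it was -1.05 with Agilent's processed signal and -0.20 after normexp background correction, and F1 minus CR was 0.33, 1.17 and 0.21 in the same settings. F1 and LW were 0.00 ± 0.0889 apart. CR minus LW was -0.37 and F1 minus LW -0.03 without the 5 animals that lay apart. The file gives no transcript position for O3619, and which part of LPIN1 it reads was not tested.

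**Figure D3:**
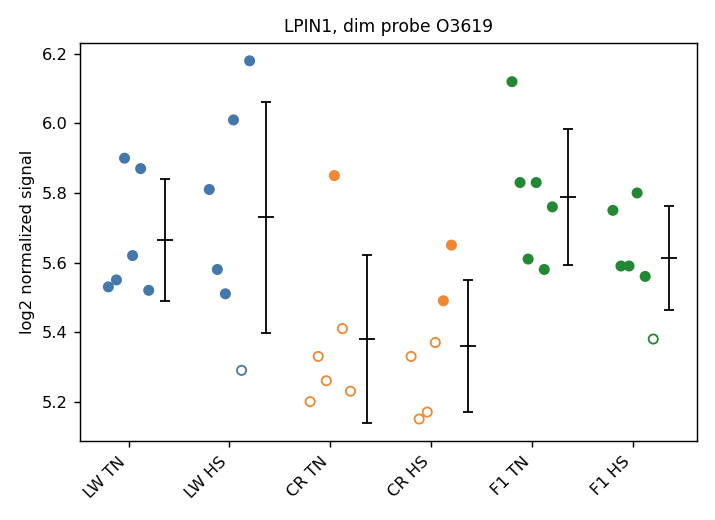
Log2 normalized signal of LPIN1 probe O3619 in each pig, by breed and temperature, with 6 animals per group and bars for the mean ± SD. Filled dots were well above background and open dots were not. Only 3 of 12 CR animals were above background, against 11 of 12 in LW and in F1.

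How the probes moved together from animal to animal was then examined, after the mean of each of the 6 groups was subtracted. The 7 other LPIN1 probes correlated with one another at r = 0.64 to 0.98 over 36 animals (21 pairs), and O3619 with them at r = -0.05 to 0.24. The LPIN2 probes correlated at 0.46 to 0.96 and the LPIN3 probes at 0.76 to 0.90. LPIN1 probes other than O3619 also correlated with those of LPIN2, at 0.51 to 0.78 (28 pairs), but with those of LPIN3 at 0.01 to 0.35 (21 pairs). These values share arrays and describe the probes.

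**Figure D4:**
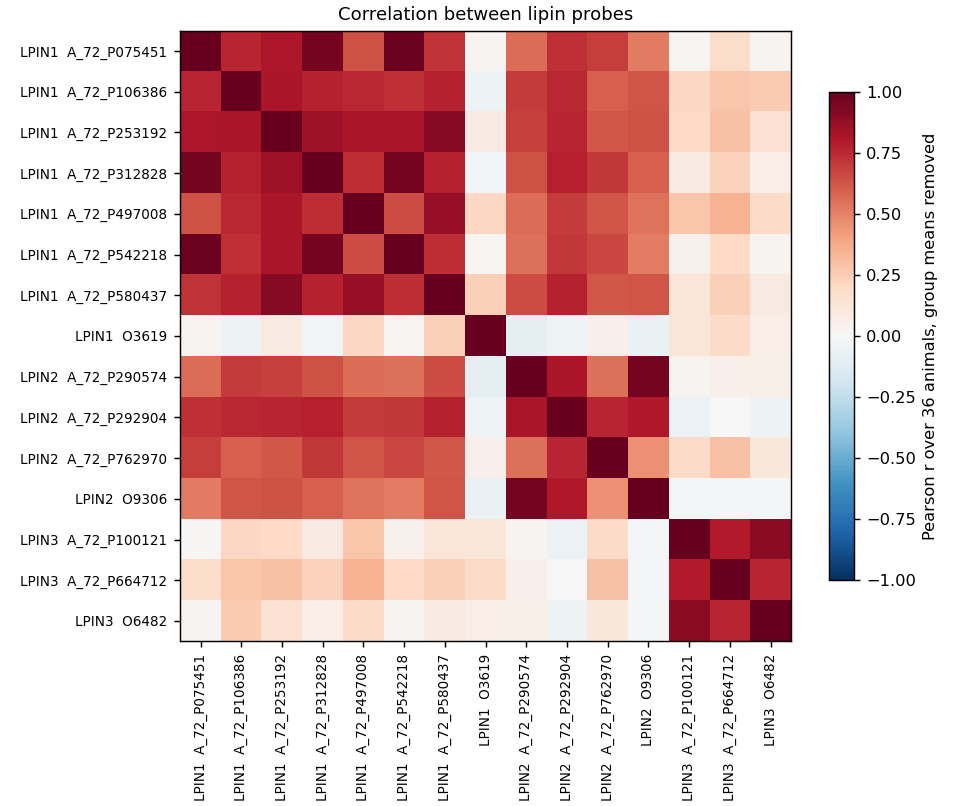
Pearson correlation between the 15 lipin probes over 36 animals after subtracting group means, on a colour scale from -1 to 1. LPIN1 and LPIN2 probes form one block and LPIN3 probes another, and O3619 stands outside both, with r of -0.05 to 0.24 to the other LPIN1 probes.

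The test on the representative probes asked whether an animal high in one lipin was high in another, over 3 pairs. LPIN1 and LPIN2 rose and fell together, with r = 0.77 (adjusted permutation p = 3.0e-05, 100000 resamples, two-sided; the raw p of 1.0e-05 is the smallest they can give) and rho = 0.69 (adjusted permutation p = 6.0e-05). With slide means removed as well, r was 0.81 and rho 0.75. Leaving out the 2 animals farthest from the median of LPIN1, CR TN replicate 4 and F1 TN replicate 3, gave r = 0.68 and rho = 0.63 (n = 34, permutation p = 3.0e-05 and 9.0e-05). Without the 5 animals that lay apart, r was 0.78 (n = 31).

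The relation of LPIN1 to LPIN2 held by Pearson r within each breed of 12 animals: 0.86 in LW, 0.69 in CR and 0.86 in F1 (adjusted permutation p of 0.00195, 0.0499 and 0.00165). By ranks the values were 0.80 for LW, 0.39 for CR and 0.69 for F1 (adjusted permutation p of 0.0078, 0.53 and 0.0479), so in CR it was not detectable by rank. LPIN3 showed no such relation: r was 0.09 with LPIN1 and -0.05 with LPIN2 (adjusted permutation p = 0.769 for each). Within CR, LPIN3 and LPIN1 gave r = 0.62 and within F1 -0.62 (adjusted permutation p of 0.0543 and 0.047), with ranks of 0.29 and -0.57 (0.53 and 0.09); whether the breeds differ in this was not tested. Since LPIN2 varied with LPIN1, its breed differences are not independent of those for which LPIN1 was chosen.

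**Figure D5:**
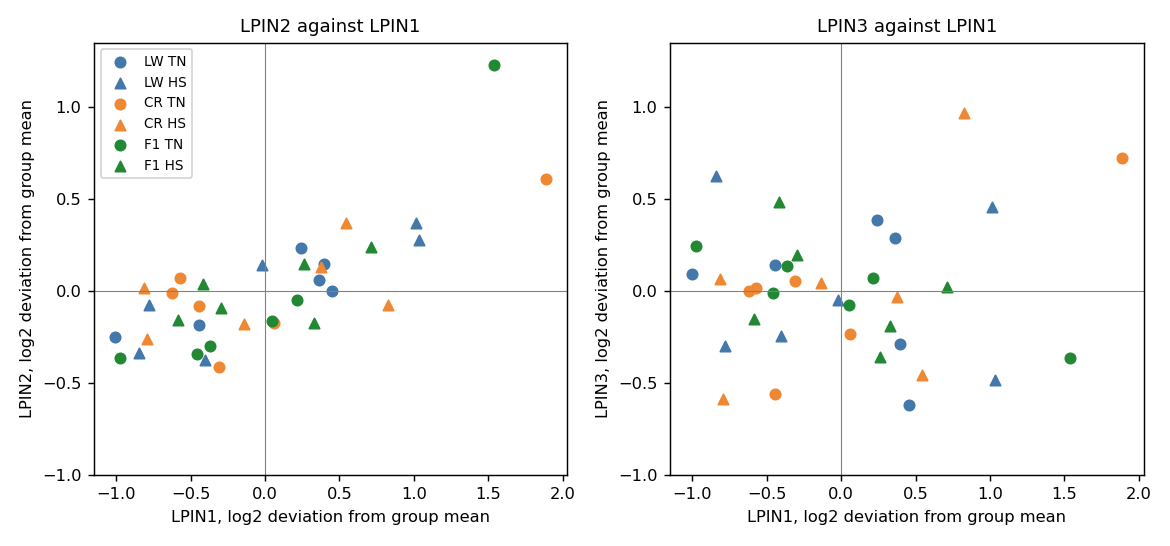
LPIN2 (left) and LPIN3 (right) against LPIN1 in each of 36 pigs, as log2 deviations from the mean of the animal's group, at the representative probes. Colour marks the breed, circles TN and triangles HS. LPIN2 followed LPIN1 (r = 0.77) and LPIN3 did not (r = 0.09).

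The genes most like each lipin were sought among 10436 other symbols, by Pearson r over 36 animals after subtracting group means, as a description. LPIN2 was at rank 1 for LPIN1, and LPIN1 at rank 3 for LPIN2. After LPIN2, the closest to LPIN1 were SASH1 (0.74), CREM (0.71), JOSD1 (0.71) and PPARGC1A (0.70), where CREM is a cAMP-responsive transcription factor and PPARGC1A the coactivator that lipin 1 is known to join. CREM was also the closest to LPIN2 (0.80), followed by ANKRD13C (0.79), with NEDD4L, a ubiquitin ligase, at 0.75 and RNASE12 at 0.74. Without F1 TN replicate 3 and CR TN replicate 4, LPIN1 gave 0.62 with SASH1, 0.56 with CREM, 0.47 with JOSD1 and 0.52 with PPARGC1A (n = 34), while LPIN2 fell from 0.79 to 0.38 with ANKRD13C and from 0.74 to 0.30 with RNASE12.

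LPIN3 kept other company: ARVCF, a catenin (0.73), PHYH, which starts the alpha-oxidation of branched fatty acids (0.71), ETNK2, an ethanolamine kinase of phospholipid synthesis (0.68), TMEM41A (0.68) and UROC1, of histidine breakdown (0.67). Neither LPIN1 nor LPIN2 ranked near the top for LPIN3, at rank 3378 and 5613. None of the genes named as most like a lipin passed the test between HS and TN (limma, adjusted p of 0.201 to 0.929).

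F1 TN replicate 3 was the highest of its group for several of these genes. Its PPARGC1A signal was 12.97 against 11.61 to 12.05 in the other F1 TN animals, and its CREM signal 12.68 against 9.95 to 10.89. IGFBP1, an insulin-like growth factor binding protein that rises in fasting, was at 16.61 against 14.26 to 15.05, and CPT1A, the gate of fatty acid entry into mitochondria, at 13.72 against 10.42 to 12.87. LPIN3 was the lowest of the group in this animal, at 10.72 against 11.01 to 11.33. CR TN replicate 4, second highest in LPIN1, was also the highest of its group for PPARGC1A (12.06 against 11.21 to 11.46) and CREM (11.28 against 9.95 to 10.83), but not for IGFBP1 (14.94 against 14.11 to 15.47).

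The steps around the lipins were then read from 6 gene lists, 40 of whose 52 genes had a usable probe. No listed gene passed the test between HS and TN in limma, where 0.947% of all genes with a probe did. Upstream of the lipins, the acyltransferases that build phosphatidate had 9 of 10 genes measured and a median difference of 0.06 (HS minus TN, log2; all genes, -0.004), with the largest values at GPAT4 (-0.22 ± 0.11, adjusted p = 0.40) and GPAT3 (0.21 ± 0.101, adjusted p = 0.352). Among the genes that make or use phosphatidate by other routes, 8 of 12 were measured with a median of -0.06, led by DGKH (0.14 ± 0.0575) and PLPP2 (-0.13 ± 0.107). Of the enzymes that use diacylglycerol, 4 of 7 were measured with a median of -0.03, and DGAT2, which completes triglycerides, gave 0.10 ± 0.113 and SELENOI -0.10 ± 0.0836.

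Regulators and partners of the lipins likewise gave no call for heat. Of the lipin regulators 4 of 6 were measured with a median of 0.06, and SREBF1, the lipogenic factor, gave 0.25 ± 0.169 (adjusted p = 0.587) and RPTOR 0.10 ± 0.0471 (adjusted p = 0.323; limma). The nuclear partners and their targets, all 10 measured, had a median of -0.14, with CPT1A at -0.67 ± 0.238 (adjusted p = 0.168). Of the glucocorticoid and fasting response genes 5 of 7 were measured with a median of -0.39, led by G6PC1, of glucose release (-0.65 ± 0.311, adjusted p = 0.361), and IGFBP1 (-0.51 ± 0.187, adjusted p = 0.19).

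Between breeds, a few genes of these lists changed beside 25.8% of all genes for CR minus LW and 17.3% for F1 minus LW. In upstream acylation, GPAT3 fell in CR by 0.48 ± 0.124 (adjusted p = 0.00453) and in F1 by 0.49 ± 0.124 (adjusted p = 0.00646; limma), the only one of 9 called, and the list medians were 0 and -0.02. Among phosphatidate genes, DGKD, a kinase that runs the lipin step in reverse, rose in CR by 0.25 ± 0.0803 and in F1 by 0.26 ± 0.0803, and DGKA, of the same kind, rose in F1 by 0.31 ± 0.102 (1 and 2 of 8 called, medians 0.01 and -0.01). No enzyme that uses diacylglycerol was called (medians -0.06 and -0.01).

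Among the regulators, MTOR, whose complex phosphorylates lipin 1, rose in CR over LW by 0.24 ± 0.055 (adjusted p = 0.00135) and SREBF1 by 0.74 ± 0.207 (adjusted p = 0.00785; limma), 2 of 4 called with a median of 0.21, and none was called in F1 (median 0.12). Among the nuclear partners and targets, ACADM, of fatty acid oxidation, rose in CR by 0.50 ± 0.124 (adjusted p = 0.00279) and HNF4A, a hepatocyte transcription factor, by 0.36 ± 0.106 (adjusted p = 0.011), and the list medians were 0.16 in CR and 0.18 in F1. NR3C1, the glucocorticoid receptor, fell in CR by 0.20 ± 0.0754 (adjusted p = 0.0435), the 1 of 5 called in its list (median -0.20), and none was called in F1 (median -0.08). PPARGC1A gave 0.35 ± 0.138 for F1 minus LW (adjusted p = 0.0705). No listed gene was called between F1 and CR, beside 1.77% of all genes, and CR minus LW and F1 minus LW share the LW animals. Without the 5 animals that lay apart, the listed genes named above as changed between breeds kept their direction and their call (limma). That fit favours larger breed differences, so this is not separate support. In that fit NR3C1 (-0.28, adjusted p = 0.00276), MTOR (0.20, adjusted p = 0.00525), SREBF1 (0.56, adjusted p = 0.0261) and CEPT1, which makes phospholipids from diacylglycerol (-0.28, adjusted p = 0.0179), also passed for F1 minus LW, and CDS1, which draws phosphatidate into another lipid route (-0.22, adjusted p = 0.0368), for CR minus LW.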

How the data were processed

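Liver RNA of 36 pigs was hybridised to 1-colour Agilent arrays, 1 per animal. The authors deposited scanner tables from Agilent Feature Extraction 10.10.1.1, whose median, mean, background and processed signals are linear spot intensity values, not normalized between arrays. The authors also deposited log2 values of 42051 probes, quantile normalized per their methods, in which each probe is centred to about one mean; the centring is not stated, so only differences were taken from them. Median probe intensity was 70.0 to 92.0 per array over a background of 18.0 to 25.0, 39644 to 44025 of 60306 spots were well above background and none was saturated. With 1 array per animal, the number of arrays limits the precision of a group mean.

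Median signals were log2 transformed and quantile normalized, and 107 spots flagged as non-uniform, none of a lipin probe, were dropped before limma's fit. The study's methods put quantile normalization before log2. Probes well above background on at least 6 arrays were kept, 44796 of 60305 (74.3%). Names came from the files and RefSeq (Sscrofa11.1). limma 3.58.1 in R 4.3.3 (lmFit, eBayes, two-sided, Benjamini-Hochberg over the kept probes, threshold 0.05) fitted breed and temperature as fixed effects; the study's random effects are not in the labels. The interaction (F test) and the effects within breeds came from a model of the 6 group means. Where a gene had several kept probes, the one of highest mean signal represents it. All lipin probes are reported; from the lists, called genes and the 2 largest HS minus TN differences per list are named (some results of the nuclear partner list are not reported here), and for likeness the 5 genes of highest r; IGFBP1, CPT1A and LPIN3 in single animals, MTOR and PPARGC1A between breeds, CEPT1, CDS1 and the called markers were named where a statement turned on them. Correlations used 100000 permutations. Alternatives were another signal, background correction, order of normalization and log, source of values, filter, slide block, array weights, spread estimate, mean per gene, model or sample set, and leaving out each animal or slide. Arrays lay on 5 slides of 4 to 8 arrays, each slide with at least 3 groups. Groups came from the labels, and replicate numbers only name animals. The fit was tested on simulated data. The study's differential analysis was not used here. The members, lists and rules were chosen with earlier results of these data known.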

Additional observations from a re-analysis of the deposited data

Results flagged for a closer look

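In groups of 6 animals, a value was set aside for a closer look when its gap to the nearest animal exceeded the 95% critical share of the group's range in Dixon's test, which chance does in about 1 of 20 groups. Of 90 groups checked (15 probes by 6 groups), 13 passed, and the probes of one gene share animals, so these are not 13 separate events.

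CR TN replicate 4, the highest of its group at all 8 LPIN1 probes, passed at 5 of them. The gap was 0.728 of the range at A_72_P580437 (12.26 against 10.43 for the next animal), 0.756 at A_72_P106386, 0.664 at A_72_P253192 and 0.667 at A_72_P312828. It also stood out at the dim probe O3619 (0.67, 5.85 against 5.41), where it was the 1 CR TN animal above background.

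F1 TN replicate 3, the highest of its group at 7 LPIN1 probes and all 4 LPIN2 probes, passed at 3 of each. For LPIN1 the gap was 0.65 at A_72_P106386, 0.691 at A_72_P253192 and 0.754 at A_72_P497008 (12.24 against 10.27). For LPIN2 it was 0.801 at A_72_P292904 (13.95 against 12.68), 0.638 at A_72_P290574 and 0.674 at A_72_P762970. This animal also lay apart from the other F1 pigs on the first principal component.

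The other flags were single probes. F1 HS replicate 6 was high at LPIN1 A_72_P497008 (0.633, 10.53 against 9.84), and CR HS replicate 5 was high at LPIN3 A_72_P664712 (0.744, 6.72 against 6.01).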

How the results depend on the processing

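No lipin probe was called for HS minus TN over all breeds, within a breed or in the interaction under any of the alternatives run, 54 for HS minus TN. The representative LPIN1 value turned positive without slide 1 (0.031), without slide 4 (0.058) and, in an alternative chosen after seeing the data, without the 5 animals apart from their breed (0.082), where LPIN2 was 0.02. At O3619 it was 0.007 without slide 3. Within LW, LPIN1 gave -0.049 as a mean per gene and -0.097 without slide 3, LPIN2 gave 0.007 with the authors' table, 0.056 without slide 1, 0.037 without slide 2 and 0.034 without those 5 animals, and LPIN3 gave -0.079 without slide 3. Within CR, LPIN2 gave 0.017 without slide 3 and 0.018 without slide 5, where LPIN1 was -0.107 and LPIN3 -0.104. Within F1, LPIN2 gave 0.024 without slide 4 and 0.112 without those 5 animals, and LPIN3 -0.056 without slide 4.

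The CR minus LW count of lipin probes, 3 in the report, was 1 with the processed signal, with no filter and without slide 4, 0 of 3 genes with a mean per gene and 8 without the 5 animals. LPIN3 lost that call at 0.393 with the processed signal, 0.38 with the authors' table, 0.414 with no filter, 0.224 with a mean per gene, and 0.412, 0.421 and 0.281 without slides 1, 4 and 5; LPIN2 was -0.047 without slide 3. The F1 minus LW count, 7, was 11 with the processed signal, 4 with the authors' table, 3 of 3 genes with a mean per gene, and 2, 4 and 0 without slides 2, 3 and 4. LPIN2 lost that call at 0.349 with the processed signal, 0.284 with the authors' table, and 0.356, 0.419, 0.263 and 0.463 without slides 2 to 5, and LPIN3 at 0.564 without slide 4. The F1 minus CR count, 1, was 0 with normexp, no filter, the filter on all 36 arrays, slide as a fixed block, a mean per gene, without slides 1 to 4 and without the 5 animals. The mid-parent count, 0, was 1 with array weights and 3 without the 5 animals, where LPIN2 (0.273) and LPIN3 (0.484) passed. Leaving out a slide removes 4 to 8 arrays. Otherwise the cause was not tested. Calls over all probes or genes also ranged widely: 2769 to 14778 for CR minus LW and 1584 to 14488 for F1 minus LW. They were 120 to 1072 for F1 minus CR and 55 to 7622 against the mid-parent. The lipin counts include the LPIN1 probes, so nothing is read from them. In the main fit the near-background probe O3619 gave the 1 call for F1 minus CR. It also gave 1 of the 3 calls for CR minus LW, where it was lower in CR.

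Leaving out 1 animal at a time, lipin calls were 1 to 3 for CR minus LW, 3 to 9 for F1 minus LW, 0 to 1 for F1 minus CR and 0 to 2 against the mid-parent. Over all 44796 probes the calls were 10590 to 12686, 6278 to 9860, 483 to 720 and 255 to 1181 in the same order. LPIN1 HS minus TN was -0.157 to 0.026, and -0.06 to 0.315 within LW; LPIN2 was -0.112 to 0.036 within LW, -0.142 to 0.062 within CR and -0.274 to 0.045 within F1; LPIN3 was -0.048 to 0.29 within CR. LPIN3 was 0.323 to 0.474 for CR minus LW and 0.363 to 0.452 against the mid-parent, and LPIN2 0.27 to 0.427 for F1 minus LW. Of 2400 comparisons of a value with an alternative, 2196 counted as the same. A tested value had to keep its direction and its side of the threshold, whatever its size. Size was checked only for counts and for values given without a test. Calls over all probes varied too: 384 for HS minus TN became 70 without slide 4, 8220 for F1 minus LW became 1584 without slide 3, and 504 against the mid-parent became 7622 without the 5 animals. No paired analysis was possible because TN and HS arrays came from different pigs and the labels name no litter or pen. O3619, near background, gave -1.053 (CR minus LW) and 1.169 (F1 minus CR) with the processed signal.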
